A study of Mus musculus with 8 samples.

Results

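Accessible chromatin around microRNA genes was examined in microglia of the mouse forebrain, with ATAC-seq, an assay that tags open DNA with a transposase. The peaks described are those of the deposited table whose assigned gene symbol begins with Mir followed by a digit, or with Mirlet, on chromosomes 1 to 19. There were 1982 such peaks of 67822 listed peaks, 762 of them at most 10 kb from the assigned start site and 1220 farther away, and 16 peaks on chromosome X were left out. The assigned gene is the one with the nearest annotated start site, so a peak can lie inside or beside another gene. All coordinates are on mm10.

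The study compared wild-type C57BL/6N mice with mice carrying the Cias1 knockout, named Nlrp3-/- (Cias1 is an older name of Nlrp3), with 4 libraries per genotype. Cells were CD11b-positive microglia taken from dissociated brain on magnetic columns after myelin removal. No treatment, age or sex is named in the labels, and they do not say that each library is a separate animal, so the spread behind each p-value is that of libraries and may be technical in part. NLRP3 is the sensor of an inflammasome, and the comparison asks what its loss changes in open chromatin.

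A microRNA is cut from a hairpin in a longer transcript, and its mature strand guides Argonaute to messenger RNAs through a short seed near its 5′ end. Several hairpins often share 1 transcript, whose start can lie far upstream of the hairpins, so a peak near a hairpin need not be the promoter. In microglia and other myeloid cells miR-142, miR-21, miR-146a, miR-155 and miR-22 are well known, miR-146a and miR-155 as part of NF-kB responses, while miR-124 and miR-9 are known from neurons.

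The mature sequences of the microRNA genes on which the results turn are given here 5′ to 3′, with the seed (bases 2 to 8) in capitals. They were taken from RefSeq on GRCm38.p6, where 450 of the 517 microRNA genes with a peak had a mature sequence. The first set comes from 1 cluster on chromosome 8, and most peaks assigned to it had a positive fold change in the knockout. The strand miR-3074-5p is transcribed opposite to miR-24-3p from the same DNA.
mmu-miR-23a-3p: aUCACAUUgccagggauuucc
mmu-miR-27a-3p: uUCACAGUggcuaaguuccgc
mmu-miR-24-3p: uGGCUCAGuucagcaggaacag
mmu-miR-3074-5p: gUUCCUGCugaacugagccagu

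The second set belongs to the other genes with a changed peak or a changed sum of peaks. The seed of miR-148a-3p is shared with miR-148b-3p and miR-152-3p, whose genes lie on other chromosomes, and these 3 strands are shown together.
mmu-miR-148a-3p: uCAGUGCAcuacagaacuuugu
mmu-miR-148b-3p: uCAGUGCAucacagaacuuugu
mmu-miR-152-3p: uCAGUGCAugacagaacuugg
mmu-miR-704: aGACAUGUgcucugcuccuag
mmu-miR-682: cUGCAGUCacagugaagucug
mmu-miR-6897-5p: uGGGGGCAgugucacacgcuguu
mmu-miR-5098: gUUACAUGgugaagcccaguu

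The third set belongs to myeloid microRNAs whose peaks are among the highest, or whose absence of near peaks is described. None of these seeds is shared between them.
mmu-miR-142a-3p: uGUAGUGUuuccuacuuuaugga
mmu-miR-22-3p: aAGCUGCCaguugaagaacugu
mmu-miR-21a-5p: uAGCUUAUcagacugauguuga
mmu-miR-146a-5p: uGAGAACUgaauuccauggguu
mmu-miR-155-5p: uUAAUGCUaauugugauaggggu
mmu-miR-34a-5p: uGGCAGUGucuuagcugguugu

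Library totals ranged from 11325865 to 15521580 tags. The share of tags in listed peaks was 9.79% to 17.5% in the wild type, while knockout replicates 1 and 2 had 6.68% and 4.96% and knockout replicates 3 and 4 had 20.9% and 26.2%. Knockout replicates 1 and 2 therefore stand apart in tags within peaks, though not in library totals. They had a median of 10 and 9 tags per tested microRNA peak against 33 in knockout replicate 4, and results are also given without them. Of 10 microglia and macrophage genes, 9 had a promoter peak (all but Aif1), with a summed level of 290 to 314 CPM in the wild type and 278 to 339 CPM in the knockout. Levels are given as CPM (counts scaled to a fixed total of tags in tested peaks, with TMM factors that correct for composition). None of 6 neuronal and none of 5 granulocyte and lymphocyte genes had a promoter peak, and 2 of 5 astrocyte, 2 of 6 oligodendrocyte and 2 of 4 endothelial genes did. For these last 3 groups the mean level per listed gene was 3.24, 1.57 and 4.7 CPM, against 30.1 CPM for the microglia and macrophage genes. At the 2 peaks of the Nlrp3 start, wild-type libraries held 58 to 80 and 54 to 69 tags and knockout libraries 0 or 1, which fits the labels.

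The 1982 peaks were assigned to 517 microRNA genes, of which 366 had a peak within 10 kb. A gene had a median of 2 peaks, 197 genes had 1 and 47 had 10 or more. Only 156 peaks lay within 1 kb of the start site, 234 lay beyond 100 kb, and the farthest was 744736 bp away. In the deposited annotation 12.9% of the near peaks were promoter peaks, 43.8% intronic and 24.1% intergenic, and of the far peaks 56.4% were intronic and 39.6% intergenic, against 19.5%, 42.9% and 30.3% of all listed peaks. The 10 kb limit runs through a continuous range of distances: the last peak inside it, assigned to Mir7227, lay at 9990 bp with a log2 fold change of -0.029, and the first outside, assigned to Mir7680, lay at 10006 bp with 0.11.

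Few of these peaks passed the test between genotypes. Of 646 near peaks with enough tags to test, 2 passed an adjusted p of 0.05 (edgeR's quasi-likelihood test, Benjamini-Hochberg over all tested peaks), both higher in the knockout. Of 997 far peaks, 3 passed, 1 higher and 2 lower. The background over all 58135 tested peaks was 0.17% called (0.055% higher and 0.115% lower), beside 0.31% of the near and 0.301% of the far peaks, so the shares rest on 5 peaks in all. At an unadjusted p under 0.05 there were 39 near peaks, 26 higher and 13 lower, and 58 far peaks, 34 higher and 24 lower, or 6.04% and 5.82% against 4.83% of all tested peaks. Of all tested peaks under that threshold, 1516 were higher and 1292 lower. The genotypes did not overlap at 24 near peaks, 22 of them higher in the knockout, which is 3.72% against 3.17% of all tested peaks. At the far peaks they did not overlap at 31, or 3.11%, with 18 higher and 13 lower. Among all 1842 tested peaks without overlap, 975 were higher and 867 lower. The median log2 fold change of knockout over wild type was 0.027 for near peaks, 0.047 for far peaks and 0.0037 for all tested peaks.

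**Figure D1:**
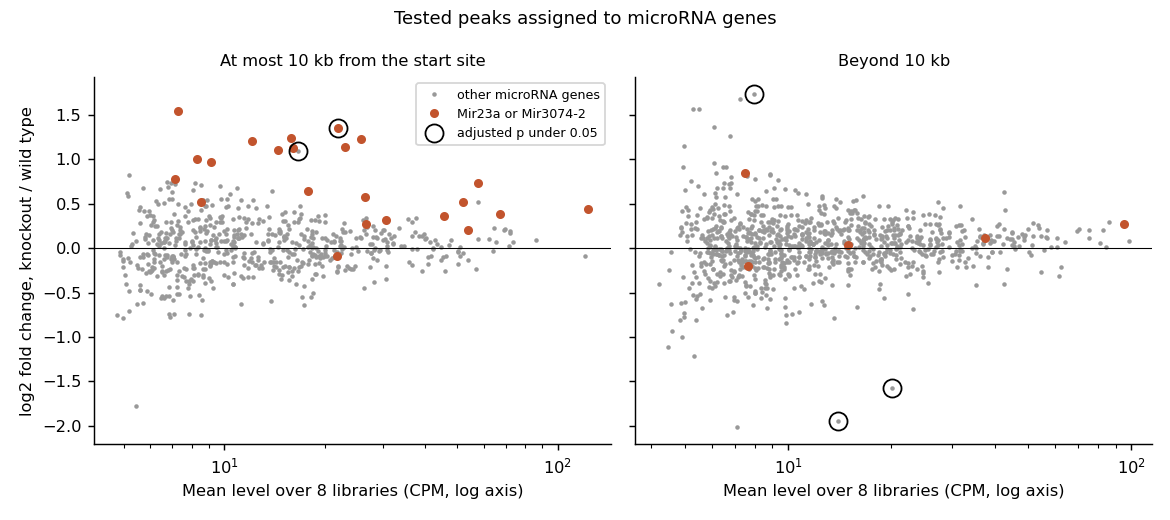
Log2 fold change (vertical) against mean level over 8 libraries in CPM (horizontal, log axis) for 646 tested peaks at most 10 kb from a microRNA start site (left) and 997 beyond (right). Each point is a peak; orange points are assigned to Mir23a or Mir3074-2 and black rings mark the 5 peaks with an adjusted p under 0.05; most orange points on the left lie above 0.

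Around the miR-23a, miR-27a and miR-24-2 cluster, peaks assigned to Mir23a or Mir3074-2 had positive fold changes in the knockout at 26 of 28 tested places. Of the tested peaks, 14 lay inside the neighbouring gene Zswim4, among them the 1 that passed the test. The cluster lies on chromosome 8, with the Mir23a hairpin at chr8:84208518-84208592, Mir27a at chr8:84208672-84208758 and Mir24-2 at chr8:84208815-84208921. The Mir3074-2 hairpin, at chr8:84208825-84208907, lies on the opposite strand. miR-23a, miR-27a and miR-24 are made from 1 transcript and are known regulators of blood cell development, and they are given above with their seeds. The table assigned 13 peaks to Mir23a and 17 to Mir3074-2, and of these 30, 28 could be tested. Over the 28, the log2 fold change had a median of 0.61 and a range of -0.20 to 1.55. The peak at 1.55, chr8:84216454-84216843, came from the knockout peak list only. The one at -0.20, chr8:84197843-84198150, came from the wild-type list only. Being listed in 1 genotype only favours a higher value in that genotype. An unadjusted p under 0.05 was reached at 19, all higher in the knockout, and 9 did not overlap between genotypes. Over all tested peaks the shares were 4.83% and 3.17%. The 28 peaks are neighbours in the same libraries and are not replicates of each other. They make up 9 of the 24 near peaks without overlap and 18 of the 39 near peaks under the unadjusted threshold.

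The peak that passed lay at chr8:84213611-84214441, over exon 13 of 14 of Zswim4, a protein-coding gene at chr8:84210942-84237042 next to the cluster, 5119 bp from the Mir3074-2 start. Its levels were 14.4, 12.6, 8.54 and 10.7 CPM in wild-type replicates 1 to 4, and 45.9, 35.4, 29 and 19.7 CPM in knockout replicates 1 to 4. All knockout libraries were above all wild-type libraries, and knockout replicate 1 was the highest. The log2 fold change was 1.36 (SE 0.25), with an adjusted p of 0.0101 by edgeR's quasi-likelihood test, and 11.6 ± 2.53 CPM rose to 32.5 ± 11 CPM (SD, n = 4 each). Without knockout replicates 1 and 2 it was 1.05, with an adjusted p of 0.0472, and the call was lost without wild-type replicate 3 (0.0786) or 4 (0.0618).

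A peak over the hairpins themselves, at chr8:84208257-84208913, came from the knockout peak list only. It held 12.4, 6.32, 7.4 and 11.2 CPM in the wild type and 26.5, 28, 22.8 and 14.2 CPM in the knockout. The groups did not overlap, with knockout replicate 4 nearest to the wild type. The peak had a log2 fold change of 1.13 (SE 0.26) with an adjusted p of 0.101 in edgeR, so it did not pass, although a peak listed only in the knockout is chosen in favour of a gain. At the end of Zswim4 that faces the cluster, a peak in the 3′ UTR at chr8:84211068-84211493 held 9.84 to 19.9 CPM in the wild type and 23.9 to 50.7 CPM in the knockout, with no overlap (log2 1.14, SE 0.25, edgeR adjusted p 0.0544). A peak in the last exon at chr8:84212318-84212835 held 10.2 to 21.4 and 20.4 to 62.7 CPM, overlapping at its edge, and did not pass either (log2 1.23, SE 0.28, edgeR adjusted p 0.0801).

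The size of the difference varied along the locus, as the plot of fold change by position shows. Upstream of the hairpins, 11 tested peaks had a median log2 fold change of 0.36, with 9 positive. Between the hairpins and Zswim4, both peaks were positive with a median of 0.66. Within the Zswim4 gene, 14 of 14 tested peaks assigned to Mir3074-2 were positive, with a median of 1.05. Of these, the peaks at chr8:84213209-84213580, chr8:84214993-84215396 and chr8:84216454-84216843 came from the knockout peak list only, a choice that favours a gain. Both of the highest peaks of the locus had values below its median. The upstream peak at chr8:84198443-84198722, the highest near peak of any microRNA gene at 123 CPM, had a log2 fold change of 0.44 (SE 0.13), and the intronic peak at chr8:84220135-84220374, at 95.2 CPM, had 0.27.

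**Figure D2:**
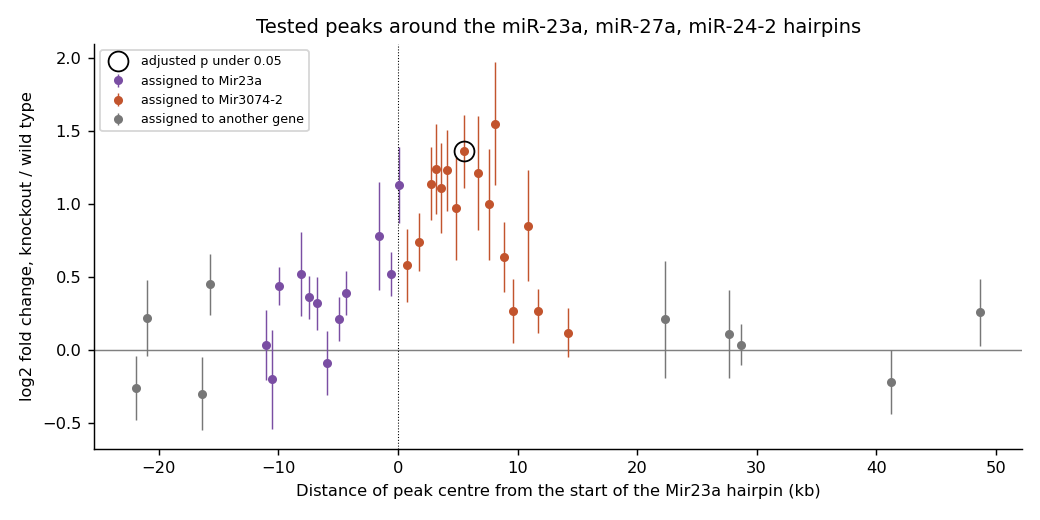
Log2 fold change of knockout over wild type (vertical, bars are standard errors) against the distance of the peak centre from the start of the Mir23a hairpin in kb (horizontal), for the tested peaks of the region, coloured by assigned gene; the black ring marks the 1 peak with an adjusted p under 0.05. Values run from -0.20 to 0.78 for Mir23a peaks left of the hairpins, from 0.58 to 1.55 from the hairpins to 8.13 kb to the right, and from 0.038 to 0.21 at the 3 Zswim4 peaks.

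Summed over the peaks inside Zswim4, the level was 318, 210, 191 and 248 CPM in the wild type and 582, 413, 363 and 301 CPM in the knockout. Knockout replicate 4 lay within the wild-type range, and knockout replicate 1 was the highest. Summed over the upstream peaks, the level was 380 ± 22.9 CPM in the wild type and 494 ± 61.9 CPM in the knockout (SD, n = 4). The 3 peaks that the table gives to Zswim4 itself, at the far end of the gene with its own promoter among them, had log2 fold changes of 0.038 to 0.21 and none passed. With the 2 next peaks to the right, of D8Ertd738e and Mri1, the median over 5 peaks within 60 kb was 0.11. To the left, the 4 tested peaks of Mir181c, a microRNA of T cell signalling, had values of -0.30 to 0.45.

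Knockout replicate 1 was the highest library at 19 of the 28 tested peaks of the locus, and knockout replicate 2 at 6. These are the 2 libraries with the smallest share of tags in peaks. Without both, the median log2 fold change was 0.43, with 26 of 29 tested peaks positive, and without knockout replicate 4 it was 0.88. With the share of tags in peaks as a covariate the median was 0.61, with 26 of 28 positive. Whether the smaller number of tags in peaks has a part in the size of this difference was not tested.

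Tags of all peaks of a gene were then added up and put through the same model. CPM of these sums per gene are scaled to the tags of all tested genes, so they differ slightly from sums of peak CPM. Of 479 tested microRNA genes, 4 passed (0.835%), against 0.213% of all 15476 tested genes. Mir3074-2, with 17 peaks, was higher in the knockout (log2 0.76, SE 0.16, edgeR adjusted p 0.0342), though the groups overlapped: 393, 262, 223 and 289 CPM in the wild type and 726, 492, 449 and 356 CPM in the knockout. Mir23a, with 13 peaks, held 414, 376, 341 and 361 CPM against 588, 488, 507 and 422 CPM, without overlap (log2 0.42, SE 0.089, edgeR adjusted p 0.0471). Both sums include peaks listed only in the knockout, whose choice favours a gain, and these p-values do not allow for that. The Mir23a sum also includes a peak listed only in the wild type. The Mir3074-2 call was also lost with DESeq2 (adjusted p 0.76) and with robust moderation in edgeR (0.773). Neither call held without knockout replicates 1 and 2, where the adjusted p was 0.273 for Mir3074-2 and 0.23 for Mir23a, at log2 0.46 and 0.31. Without wild-type replicate 2, 3 or 4, or without knockout replicate 2 or 3, both sums also missed the threshold, and without knockout replicate 1 they gave 0.178 and 0.217.

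Peaks assigned to Mir148a were lower in the knockout. miR-148a belongs with miR-148b and miR-152 to 1 seed family and is known from B cells and liver. Its hairpin lies at chr6:51269812-51269910, and the 5 peaks lie 91281 to 101667 bp away, all intergenic, so no peak within 10 kb was assigned to it. Summed, they held 58.5, 65.5, 77.1 and 47.7 CPM in the wild type and 39, 33.3, 27.1 and 24.1 CPM in the knockout. Every knockout library was below every wild-type library, and 62.2 ± 12.3 CPM fell to 30.9 ± 6.61 CPM (SD, n = 4; log2 -1.11, SE 0.17, edgeR adjusted p 0.00105). Among the peaks, the one at chr6:51178507-51178751 is in the table only through the wild-type list, a choice that favours a lower value in the knockout. With scaling to all tags the sum had a log2 fold change of -1.06 and an adjusted p of 1.

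Of these 5 peaks, 4 could be tested and all 4 had a negative fold change, from -0.51 to -2.02 on the log2 scale. The one that passed, at chr6:51170957-51171233, held 22.4, 23.2, 29.6 and 12.1 CPM in the wild type and 12.1, 2.95, 5.27 and 4.21 CPM in the knockout. Wild-type replicate 4 and knockout replicate 1 lay next to each other, and the other libraries were well apart. The log2 fold change was -1.95 (SE 0.32, edgeR adjusted p 0.00281), and without knockout replicates 1 and 2 it was -2.18 (adjusted p 0.000288), while scaling to all tags gave -1.90 (adjusted p 1). Without those knockout replicates, genotype and share of tags in peaks cannot be told apart. A neighbour at chr6:51172953-51173198 held 14.9 to 21.6 CPM and 8.41 to 12.1 CPM, without overlap, and did not pass (log2 -0.79, SE 0.24, edgeR adjusted p 0.54).

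On the same chromosome, 1 peak assigned to Mir704 fell. The Mir704 hairpin lies at chr6:47803576-47803652 within Pdia4, which encodes a protein disulfide isomerase of the endoplasmic reticulum, and the peak lies in intergenic DNA 25138 bp away at chr6:47778289-47778740. Its levels were 31.8, 34.4, 37.6 and 18.2 CPM in the wild type and 9.65, 7.38, 11.4 and 10 CPM in the knockout. The knockout libraries lay close together, below the lowest wild-type library, replicate 4. The peak had a log2 fold change of -1.57 (SE 0.24, edgeR adjusted p 0.0013), and -1.49 without knockout replicates 1 and 2 (adjusted p 0.00256). In that subset genotype and share of tags in peaks cannot be told apart. With scaling to all tags the log2 fold change was -1.45 (adjusted p 1). The gene's other peaks did not pass. A peak at chr6:47788371-47788599 held 22.5 to 29.8 CPM in the wild type and 16.9 to 24.9 CPM in the knockout. The peak nearest the hairpin held 17.2 ± 1.8 and 19.1 ± 6.48 CPM. The sum over 4 peaks did not pass (log2 -0.44, SE 0.11, edgeR adjusted p 0.207).

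With all 8 libraries, Mir682 passed only as a sum. Its 3 peaks lie on chromosome 13, 87583 to 102283 bp upstream of the start, and came from the wild-type peak list only. Each held too few tags to be tested alone in that fit. Together they held 20.5, 18.9, 19.7 and 14.1 CPM in the wild type and 10.6, 4.34, 1.27 and 4.64 CPM in the knockout. The groups did not overlap, and knockout replicate 3 was the lowest. The log2 fold change was -2.06 (SE 0.35, edgeR adjusted p 0.00405), and without knockout replicates 1 and 2 it was -2.50 (adjusted p 0.000756). In that subset the peak at chr13:75555352-75555702 was also tested alone and called. Genotype and share of tags in peaks cannot be told apart in it. Since the 3 peaks are in the table only through the wild-type list, their choice favours a lower value in the knockout, and this p does not allow for that. With scaling to all tags the log2 fold change was again -2.06 and the adjusted p 1.

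Among the peaks that rose, 1 assigned to Mir6897 lay at chr1:36173017-36173249 in intron 25 of 40 of Uggt1, a glycoprotein folding sensor gene that also holds the Mir6897 hairpin, 28820 bp upstream of it. It came from the knockout peak list only and held 1.99, 3.51, 3.41 and 5.12 CPM in the wild type and 8.45, 17.7, 13.2 and 10.4 CPM in the knockout, or 4 to 11 and 7 to 32 tags per library. The groups did not overlap in CPM, at low counts. The peak had a log2 fold change of 1.74 (SE 0.34, edgeR adjusted p 0.0206), and DESeq2 gave 0.0799. As the peak is in the table only through the knockout list, its choice favours a gain, which these p-values do not allow for. The other 8 tested Mir6897 peaks included none that passed, and the median over the gene's 9 tested peaks was -0.076. Without wild-type replicate 1, 2 or 3, or without knockout replicate 3, its adjusted p was 0.067 to 0.188.

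The other near peak that rose was assigned to Mir5098 and lay at chr11:119874871-119875181, in intron 24 of 33 of Rptor, which encodes the Raptor subunit of mTOR complex 1. It held 12.4, 9.14, 10.2 and 10.2 CPM in the wild type and 20.5, 26.6, 18.9 and 25.6 CPM in the knockout. All knockout libraries were above all wild-type libraries, with little spread in either group. The log2 fold change was 1.10 (SE 0.22, edgeR adjusted p 0.0255), while DESeq2 gave 0.173. The adjusted p was 0.0527 to 0.175 without wild-type replicate 2, 3 or 4 or knockout replicate 2 or 4. The symbol needs care, since the table places Mir5098 on chromosomes 8, 11 and 17 while RefSeq places its mature strand at chr5:77272767-77272787; Rptor is the gene that spans this peak. Its neighbour in the same gene at chr11:119863595-119863823 held 58.2 ± 5.9 and 63.4 ± 2.88 CPM and did not pass.

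**Figure D3:**
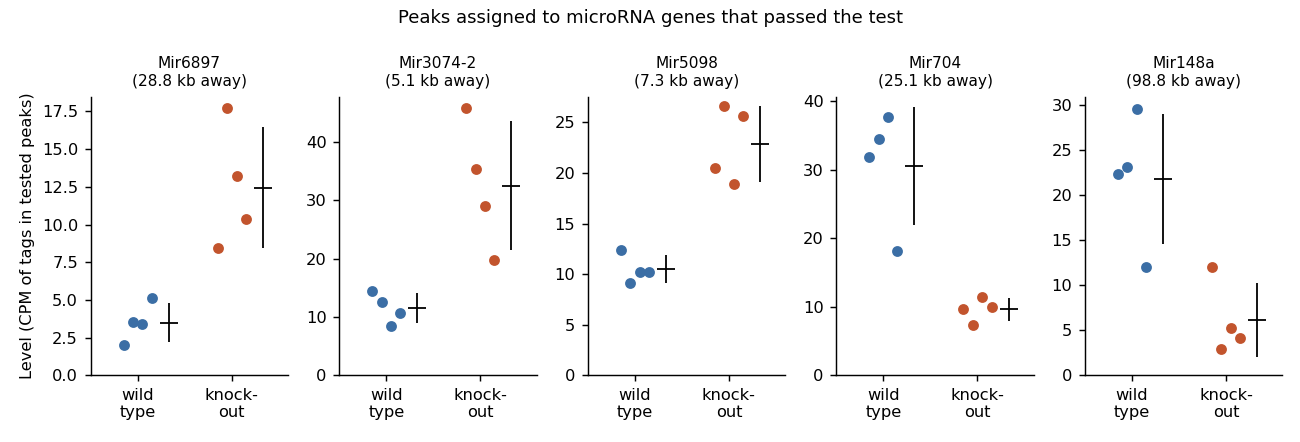
Level in CPM (vertical, from 0) in each of the 4 wild-type (blue) and 4 knockout (orange) libraries at the 5 peaks with an adjusted p under 0.05, with distance to the assigned start site in kb; black bars are mean and SD. Genotypes are apart in all 5 panels, and at Mir148a wild-type replicate 4 and knockout replicate 1 both read 12.1 CPM after rounding.

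The myeloid microRNAs had some of the most accessible near peaks and no called change. Of the hairpins in the list of myeloid and inflammation microRNAs, 26 of 39 (66.7%) had a listed peak within 10 kb, and of all 1136 RefSeq hairpins on these chromosomes 613 (54%) did. The list's genes had 48 tested near peaks, of which 0 passed by edgeR, 3 reached an unadjusted p under 0.05 and 1 did not overlap. Over all tested peaks, 4.83% reached that unadjusted threshold and 3.17% did not overlap. The median log2 fold change of the 48 peaks was -0.052, beside 0.0037 for all tested peaks.

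The promoter of Mir22hg, the host transcript of miR-22, carried the second highest near peak, at chr11:75461235-75461629. It held 99.9, 126, 132 and 140 CPM in the wild type and 103, 130, 111 and 124 CPM in the knockout. The groups overlapped fully, and the log2 fold change was -0.091 (SE 0.12, edgeR adjusted p 1). The RefSeq promoter window of this gene, chr11:75461289-75461588 on the plus strand, lies within the peak and is shown because this was the highest peak of the 5 host gene symbols in the table. Capitals mark the CCAAT box, searched as CCAAT on both strands.
Mir22hg promoter: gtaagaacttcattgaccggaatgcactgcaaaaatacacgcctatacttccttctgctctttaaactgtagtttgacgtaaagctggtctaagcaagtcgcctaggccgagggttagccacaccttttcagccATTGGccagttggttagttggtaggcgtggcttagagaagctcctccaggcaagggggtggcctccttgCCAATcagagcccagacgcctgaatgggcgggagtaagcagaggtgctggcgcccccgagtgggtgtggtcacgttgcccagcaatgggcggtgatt

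The window held 2 matches to CCAAT, and 37.4% of 32851 RefSeq promoters of this length held at least 1. It held 0 matches to GAGGAAGT, an ETS motif of the kind bound by PU.1, which 3.2% of promoters held, and 0 to TGANTCA, the AP-1 motif, which 7.81% held. The searches covered both strands and counted exact matches only, and the motifs do not overlap. Read on the other strand, the stretch acttcctt of the window differs from GAGGAAGT by 1 base. The window was 54.7% G and C with 12 CG pairs, against medians of 52.7% and 7 over all these promoters.

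Mir142, the gene of a microRNA made in all blood cell lineages, had 8 peaks, all within 10 kb. Its highest, at chr11:87755355-87755719, lay 1327 bp upstream of the hairpin and held 72.4 ± 4.05 CPM in the wild type and 74.2 ± 13.4 CPM in the knockout (SD, n = 4), and another at chr11:87749476-87749773 held 71.2 ± 6.27 and 71.4 ± 11.3 CPM. Knockout replicate 2 was the lowest library at both, with 54.6 and 56.1 CPM. The 5 tested peaks of the gene had log2 fold changes between -0.27 and 0.072, and their signs are within the spread: those of the 2 highest change sign when single libraries are left out.

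Mir21a, whose hairpin lies at the end of the Vmp1 gene, had 10 peaks, the highest at chr11:86577241-86577567 with 65.6 ± 13.4 CPM in the wild type and 62.1 ± 11.7 CPM in the knockout. Mir146, the gene of miR-146a, had 10 peaks, of which the highest lay 10987 bp upstream at chr11:43385281-43385616 and held 83.4 ± 4.67 and 85.5 ± 10.8 CPM. The peak at its hairpin start held 10.2 ± 1.59 and 11.7 ± 1.84 CPM. None of the peaks of either gene passed, and the sums differed by -0.08 (SE 0.098) and 0.13 (SE 0.082) on the log2 scale. Mir155hg, the host transcript of miR-155, had 1 peak, 10076 bp upstream at chr16:84702803-84703092, with 9.51 ± 3.3 CPM in the wild type and 7.49 ± 2.05 CPM in the knockout, among the low peaks of the list.

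In the myeloid list, Mir34a and Mir147 came nearest to a call. Mir34a, a target of p53, had a peak at chr4:150060878-150061122, 7454 bp upstream, with 50.7, 54.8, 45.5 and 38.2 CPM in the wild type and 56.7, 81.2, 63.2 and 70.8 CPM in the knockout. The groups did not overlap, and the log2 fold change of 0.52 (SE 0.15) had an adjusted p of 0.422 in edgeR. Another Mir34a peak at chr4:150076190-150076489, on the other side of the hairpin, had the opposite sign (log2 -0.50, SE 0.21, edgeR adjusted p 0.978). Of the gene's 8 tested peaks, 6 had a positive and 2 a negative fold change. The sum over its 9 peaks did not overlap between genotypes and did not pass (log2 0.31, SE 0.10, edgeR adjusted p 0.524). Mir147, a microRNA induced by Toll-like receptor signals in macrophages, had a peak at chr2:122652346-122652656 with 28.2 ± 6.22 CPM in the wild type and 18 ± 5.15 CPM in the knockout, which overlapped and did not pass (log2 -0.68, SE 0.21, edgeR adjusted p 0.62).

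A near peak was present at different shares of the other lists. All 9 hairpins of the miR-17-92 family found in RefSeq, which promote proliferation, had a peak within 10 kb, though 6 of them share 1 cluster and its peaks, and so did 8 of 10 let-7 hairpins and 6 of 7 of the miR-29 and miR-148 families. The oligodendrocyte and endothelial list, with 6 of 9 (66.7%), had the same share as the myeloid list, and the miR-23, miR-27 and miR-24 clusters had 4 of 8 (50%). Of the neuronal hairpins 11 of 24 (45.8%) had one, and of those of muscle, liver, red cells and epithelia 11 of 28 (39.3%). The median of the highest level within 10 kb was 32.6 CPM for the myeloid hairpins, 11.5 CPM for the neuronal and 20.5 CPM for all hairpins with such a peak. Among the neuronal ones, Mir212 had a promoter peak at chr11:75172937-75173785 with 20.2 ± 1.75 and 21.6 ± 2.06 CPM, while Mir9-2 had 5.22 CPM at its highest. Mir124a-3 had a peak of 6.52 CPM, and the hairpins of Mir124a-1 and Mir124a-2 had no listed peak within 10 kb. These lists differ in how many hairpins share a cluster or a host gene, and the shares were not tested against each other.

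**Figure D4:**
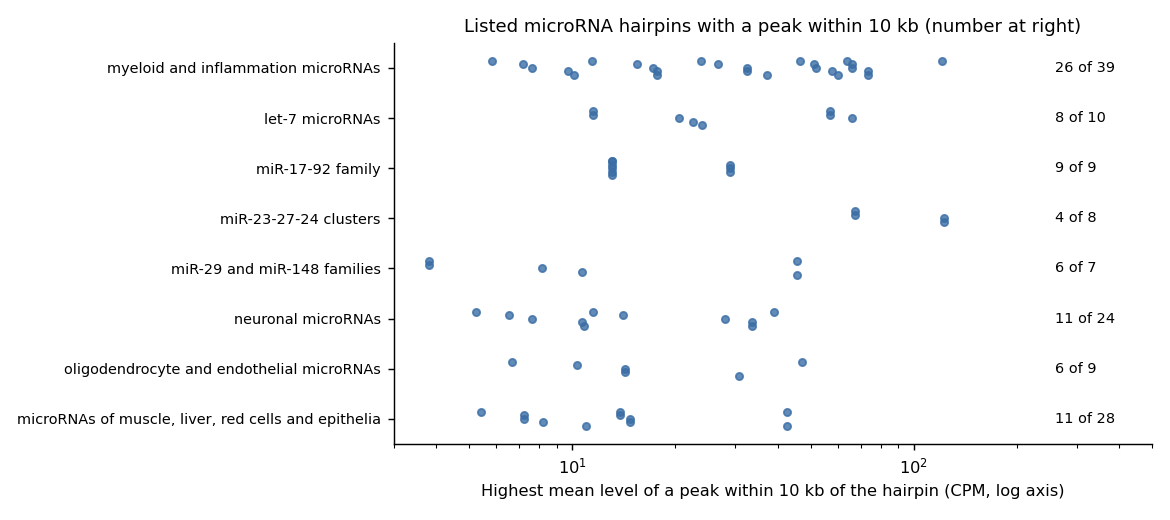
Highest mean level in CPM (horizontal, log axis) of any listed peak within 10 kb of a hairpin, 1 point per hairpin, for 8 lists of microRNAs; the numbers at right give hairpins with such a peak of those found in RefSeq. Points of hairpins in 1 cluster coincide because they share peaks; myeloid hairpins reach 121 CPM and neuronal ones 38.9 CPM.

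No list other than those holding the chromosome 8 cluster and Mir148a had a peak that passed at any distance. Of the let-7 list 13 near peaks were tested, 1 at an unadjusted p under 0.05 and 0 after edgeR's adjustment, with a median log2 fold change of -0.0049. Of all tested peaks, 4.83% were under that unadjusted threshold. The 8 tested near peaks of the neuronal list ranged from -0.54 to 0.34, and the 12 of the list for muscle, liver, red cells and epithelia from -0.36 to 0.67, with 0 under an unadjusted p of 0.05 in either. The second cluster with miR-23b, miR-27b and miR-24-1 on chromosome 13, whose miR-24-3p strand is identical and whose miR-27b-3p has the seed of miR-27a-3p, had no listed peak within 10 kb of its hairpins.

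None of the other highest near peaks passed. They were assigned to Mir7671 (86 CPM), Mir3075 in an intron of Zmiz1 (71.9 CPM), Mir760 (71.7 CPM), Mir6516 (69.3 CPM) and Mir6944 in an intron of Dbn1 (69.2 CPM), with log2 fold changes of 0.087 to 0.22 and edgeR adjusted p of 1. Among near peaks with a mean of at least 20 tags, the lowest p-values in the direction of a loss were those of Mir7062, in an intron of Adam8, at -0.64 (SE 0.21) with 21.5 ± 3.3 against 13.1 ± 1.39 CPM and no overlap, Mir6979, in an intron of Diaph1, at -0.55 without overlap, Mir8120 at -0.55 and Mir34a at -0.50. Their adjusted p-values were 0.722 to 0.978 by edgeR. Among far peaks with a mean of at least 20 tags, which leaves out the called Mir6897 peak, the lowest p-values in the direction of a gain were those of Mir5127 at 0.63 and 0.47, Mir6368 at 0.43 and Mir7057 at 0.52, with adjusted p-values of 0.23 to 0.88. The Mir5127 sum over 22 peaks had a log2 fold change of 0.25 (edgeR adjusted p 0.505).

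The genes with most peaks were Mir5130 (38), Mir701 (35), Mir29b-1 (29), Mir1901 (27) and Mir101c (26), and none had a peak that passed. Mir29b-1 belongs to the miR-29 family, known to target collagens, and its sum was 504 ± 46.4 CPM in the wild type and 532 ± 52.7 CPM in the knockout. The sums of Mir5130, Mir701 and Mir1901 had log2 fold changes of 0.093, 0.031 and 0.16, with edgeR adjusted p of 0.827 to 0.991.

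Mir101c differed from the others in its spread. Its 26 peaks lie between chr9:2999963 and 3038300, at the start of the assembled chromosome. Their sum was 390, 662, 612 and 510 CPM in wild-type replicates 1 to 4 and 976, 1309, 310 and 249 CPM in knockout replicates 1 to 4. The order of the 8 libraries was exactly the reverse of that by share of tags in peaks, from knockout replicate 2 with 4.96% to knockout replicate 4 with 26.2%. The knockout mean of 711 ± 517 CPM and the wild-type mean of 543 ± 120 CPM overlapped, and the sum did not pass (log2 0.33, SE 0.31, edgeR adjusted p 0.939). Without knockout replicates 1 and 2, 7 Mir101c peaks passed, all 7 lower in the knockout (log2 -1.31 to -0.78), and the knockout has the highest shares of tags in peaks in that subset. Mir3074-2 did not follow that order so closely: its highest sums were in the 2 libraries of lowest share, but wild-type replicates 2 and 3, with 9.79% and 12.8%, had the lowest sums.

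**Figure D5:**
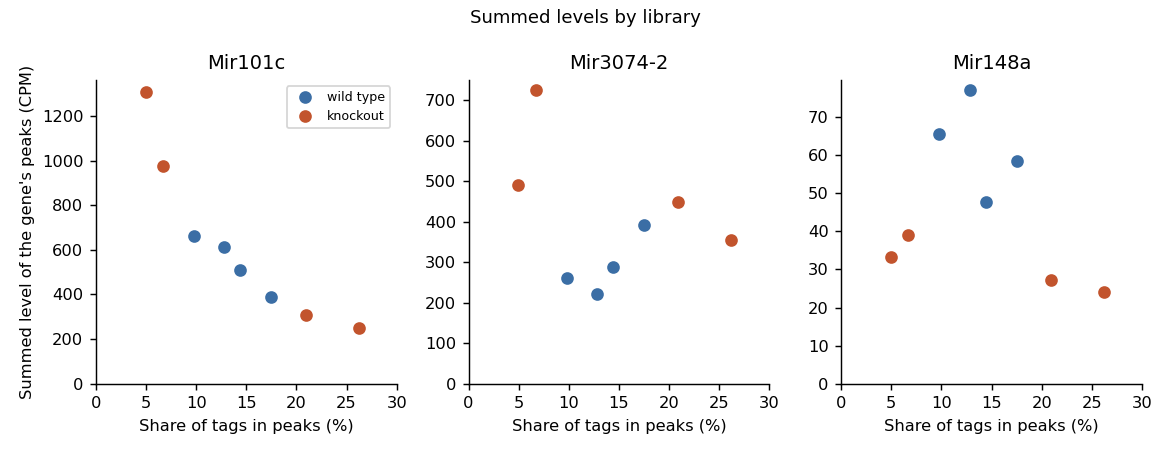
Summed level of a gene's peaks in CPM (vertical, from 0) against the share of a library's tags in listed peaks (horizontal, %) for Mir101c, Mir3074-2 and Mir148a; each point is 1 library, blue for wild type and orange for knockout. Mir101c falls steadily with the share in both genotypes, while for Mir148a all 4 knockout points lie below all wild-type points at both ends of the range.

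The share of all peak tags that fell in microRNA peaks did not pass a test between genotypes. Near peaks held 1.05% ± 0.0242 in the wild type and 1.1% ± 0.0496 in the knockout (SD, n = 4), a difference of 0.0521 points (exact permutation test, two-sided p = 0.143, where the smallest possible is 0.0286). Far peaks held 1.56% ± 0.0511 and 1.61% ± 0.0332, a difference of 0.0563 points (exact permutation p = 0.114). Without knockout replicates 1 and 2 the near difference was 0.011 points and the far one 0.0365 points.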

How the data were processed

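Per the file headers, the authors merged IDR peak lists of each genotype and counted tags over the merged peaks with HOMER, taking at most 3 tags per position; these whole-number counts are the deposited raw table. The deposited normalized table holds a signal, the same tags scaled by the authors to an equal total per library (equal to the rescaled counts within 0.005), and served only as a check. Bowtie2, HOMER, DESeq2 and the build mm10 are named in the submitters' processing notes. Settings of alignment, read shift and duplicate removal: not given in the sources used here.

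Counts of all peaks were tested with edgeR 4.0.16 (R 4.3.3; quasi-likelihood, TMM, filterByExpr, genotype only, 8 libraries), with Benjamini-Hochberg adjustment over all peaks, and likewise for tags summed per gene. Counts for 58135 peaks were simulated with the design of this comparison. Among changed peaks that passed the low-count filter after simulation, 31 of 86 (36%) changed 2-fold were recovered, and 92 of 94 (97.9%) changed 4-fold. Beside these true calls there were 18 false calls, a larger share of the calls than the adjusted p threshold is meant to allow. The calls reported here rest on the same kind of threshold, so some of them may be false. The implied start site matched RefSeq within 5 bp for 1629 of 1630 peaks that could be compared, of 1982. Only peaks with a RefSeq hairpin of the same symbol on the same chromosome were compared. The check therefore cannot show a symbol placed on a wrong chromosome.

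Named peaks were those that passed, the 4 with the smallest p per distance class and direction with a mean of at least 20 tags, the 10 highest near peaks, the highest near peak of listed genes, and the 5 genes with most peaks; named sums were those that passed and the 3 with the smallest p per direction. The members and lists were chosen with earlier results of these data known. The Mir34a peak at chr4:150060878-150061122 is the highest near peak of a listed gene; further peaks of Mir146, Mir21a, Mir155hg, Mir704 and Mir5098 and of the chromosome 8 cluster were named after their values were seen. Alternatives were DESeq2 1.42.0, other scalings, filters, robust moderation, a replicate block, a covariate, other distance limits and leaving out libraries.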

Additional observations from a re-analysis of the deposited data

Results flagged for a closer look

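Of 70 groups of 4 libraries examined at the named peaks and sums, 4 held a library far from its group, by Dixon's 95% critical value for the gap to the nearest other library over the group's range; chance gives about 1 in 20 such groups. At the Mir3074-2 peak chr8:84211068-84211493, knockout replicate 1 held 50.7 CPM and the other knockout libraries 23.9 to 28 CPM. At the Mir7057 peak, in an intron of Lrrk1, knockout replicate 2 held 19.2 CPM and the others 35 to 36.9 CPM. At the Mir6516 peak, knockout replicate 2 held 85.6 CPM and the others 70.8 to 72.4 CPM. At the Mir760 peak, knockout replicate 3 held 86.1 CPM and the others 71.5 to 73.6 CPM.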

How the results depend on the processing

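The count of changed near peaks, 2 in the report, was 0 with scaling to all tags, 4 with robust moderation, 7 with the share of tags in peaks as a covariate, 6 without knockout replicates 1 and 2 (2 higher, 4 lower), 0 at a distance limit of 5 kb, and 0 to 5 when single libraries were left out. The count of far peaks, 3 in the report, was 0 with scaling to all tags, 12 without knockout replicates 1 and 2, 5 at a limit of 5 kb, and 2 to 5 when single libraries were left out. The count of microRNA genes, 4 in the report, was 0 with scaling to all tags and 2 to 4 when single libraries were left out. Over all peaks, edgeR called 99 in the report (32 higher, 67 lower) and 19 with scaling to all tags. Without knockout replicates 1 and 2 it called 246 (52 higher, 194 lower), in a subset where genotype and share of tags in peaks cannot be told apart. Scaling to all tags gave every named peak and sum an adjusted p of 1; it was the only one of 17 alternatives that ended the calls of the Mir704 and Mir148a peaks and of the Mir148a and Mir682 sums, whose log2 fold changes under it were -1.45, -1.90, -1.06 and -2.06. The Mir3074-2 peak lost its call under 3 of 17, the Mir5098 peak under 7 of 17, the Mir6897 peak under 6 of 16, the Mir23a sum under 9 of 17 and the Mir3074-2 sum under 10 of 17, DESeq2 (adjusted p 0.76) and robust moderation (0.773) included for the last. The sign changed at 3 peaks that were not called: the Mir22hg promoter gave 0.032 with scaling to all tags, the Mir142 peak 1327 bp upstream gave -0.0057 (without knockout replicate 4) to 0.16 when single libraries were left out, and the Mir142 peak 7240 bp upstream gave -0.0069 and -0.031 without wild-type replicates 3 and 4 and -0.0022 and -0.058 without knockout replicates 1 and 3, within a range up to 0.096. The causes were not tested.

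Libraries with the same replicate number did not deviate together (correlations of -0.00771, 0.0954, -0.00752 and 0.146), and only wild-type replicates 2 and 4 correlated best with their own number, so the numbers were not used as pairs. With the replicate block, 10 near peaks were called, all higher in the knockout. Over both distances 13 were called, 9 of them in the chromosome 8 cluster. The near and far shares gave exact sign-flip p of 0.125 and 0.25. The smallest possible p of that test is 0.125, so it could not reach 0.05. At the depths, spread and number of libraries simulated together, most peaks changed 2-fold went uncalled.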
